A study of Mus musculus with 12 samples.

Results

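Here 10 genes of the Notch pathway and its HES/HEY target family were followed by gene symbol through the deposited expression table of a bone cell experiment: the receptors Notch1, Notch2 and Notch3, the ligands Jag1 and Dll1, the glycosyltransferase gene Lfng, and the target genes Hes1, Hey1, Hey2 and Heyl. All 10 symbols were found among the 39032 genes of the table, each under 1 identifier. The cells were wild-type MC3T3-E1 subclone 14, a clonal mouse pre-osteoblast line that deposits mineralized matrix when it differentiates, so every value below describes 1 clone in culture. All arms shared the osteogenic medium, and RNA was taken at day 5. The arms received vehicle (Control), 200 ng/ml of recombinant mouse RSPO2 (R-spondin 2, a secreted protein that strengthens Wnt signalling), 100 ng/ml of recombinant BMP2 (bone morphogenetic protein 2, a TGF-beta family ligand that drives osteoblast differentiation), or both proteins at those doses (BMP2+RSPO2). Each arm had 3 libraries described as independent biological replicates, and the series set out to compare the proteins alone and combined.

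Notch receptors are single-pass membrane proteins that are cut when a ligand of the Jagged or Delta-like family on a neighbouring cell binds them. The freed intracellular domain enters the nucleus, joins the DNA-binding protein RBPJ and a Mastermind co-activator, and switches on genes such as those of the HES and HEY transcriptional repressors. Fringe enzymes such as the one encoded by Lfng add sugars to the receptors and thereby change which ligands they respond to. In bone, Notch signalling is known to hold back osteoblast maturation in some settings, and Hey1 is also known as a direct target of BMP signalling in osteoblasts.

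Levels are FPKM (fragments per length of transcript and per sequenced fragments) as the authors deposited them, and means are given with the SD over 3 libraries. Changes are differences of log2(FPKM + 1) with their SE, fitted with limma over the 11548 genes that reached 1 FPKM in 3 libraries or more. A gene is called when its Benjamini-Hochberg adjusted p over all of them is under 0.05. Of the 10 genes, 6 passed that filter (Notch1, Notch2, Notch3, Jag1, Lfng and Hes1), and all of these except Notch3 were above 1 FPKM in every library. The other 4 (Dll1, Hey1, Heyl and Hey2) were under 1 FPKM in all 12 libraries.

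Textbook targets of both pathways served as a check of the treatments. The Wnt target Axin2 had means of 4.17 FPKM in Control, 11.7 under RSPO2, 2.27 under BMP2 and 4.53 in the combination, and the Wnt target Nkd2 of 1.26, 6.34, 0.153 and 0.307. In the combination, Axin2 was near its Control mean and Nkd2 was below it. The BMP targets Smad6 (4.13, 3.18, 9.91 and 7.01 FPKM) and Id1 (1.19, 0.337, 3.1 and 4.03) had higher means in both arms that received BMP2. BMP2+RSPO2 replicate 1 stood apart: small RNAs made by RNA polymerase III held 19.1% of its summed FPKM. The share elsewhere ran from 0.18% to 0.656% and reached 2.3% in replicate 3 of RSPO2. The summed FPKM of BMP2+RSPO2 replicate 1 was 635139, against 322074 to 380507 in the other libraries. Results that turn on that library are given with and without it. All 10 osteoblast markers in the table reached 1 FPKM in at least 1 library of every arm, and 7 of the 10 were called higher in the combination against Control. The adipocyte markers summed to at most 0.39 FPKM in any library. The 8 endothelial markers summed to 0.25 to 0.69 FPKM in Control, 0.26 to 0.54 under RSPO2, 0.87 to 2.15 under BMP2 and 2.04 to 7.5 under both. The 7 chondrocyte markers summed to 7.8 to 12.9 FPKM in Control, 4.37 to 4.76 under RSPO2, 23.4 to 45.2 under BMP2 and 13.9 to 22.1 under both, mostly Col2a1 and Sox9. Mural cell markers, which matter here because Notch3 and Jag1 are also genes of vascular mural cells, summed to 1300 to 1618 FPKM in Control, 1200 to 1731 under RSPO2, 755 to 818 under BMP2 and 381 to 384 under both. That sum was mostly Acta2 and Tagln. Of the 5 mural markers tested, 3 were called lower in the combination against Control and 1 higher: Pdgfrb averaged 36.6 FPKM in Control and 18.3 in the combination, whereas Cspg4, a pericyte marker, averaged 26.6 and 59.6. The means of Des were 1.44 and 2.55 FPKM, while the more restricted markers Kcnj8 (0 in all 12 libraries), Myh11, Cnn1 and Abcc9 were at or near 0.

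The order of the 10 genes by level differed between arms. In Control, Notch2 was the highest at 11.6 ± 0.5 FPKM, above Lfng at 8.89 ± 1.74, without overlap between their libraries. Notch3, Jag1 and Notch1 followed with neighbouring ranges that overlapped, then Hes1 at 2.09 ± 0.84, Dll1 at 0.413 ± 0.0802, and Hey1, Heyl and Hey2 near 0. With BMP2 alone, Lfng (12.5 ± 0.721 FPKM) and Notch2 (12.1 ± 0.972) overlapped at the top, with Hes1 next. With both proteins Notch2 came first, then Hes1 at 8.13 ± 1.64 FPKM and Lfng at 4.33 ± 0.24, each apart from its neighbours.

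**Figure D1:**
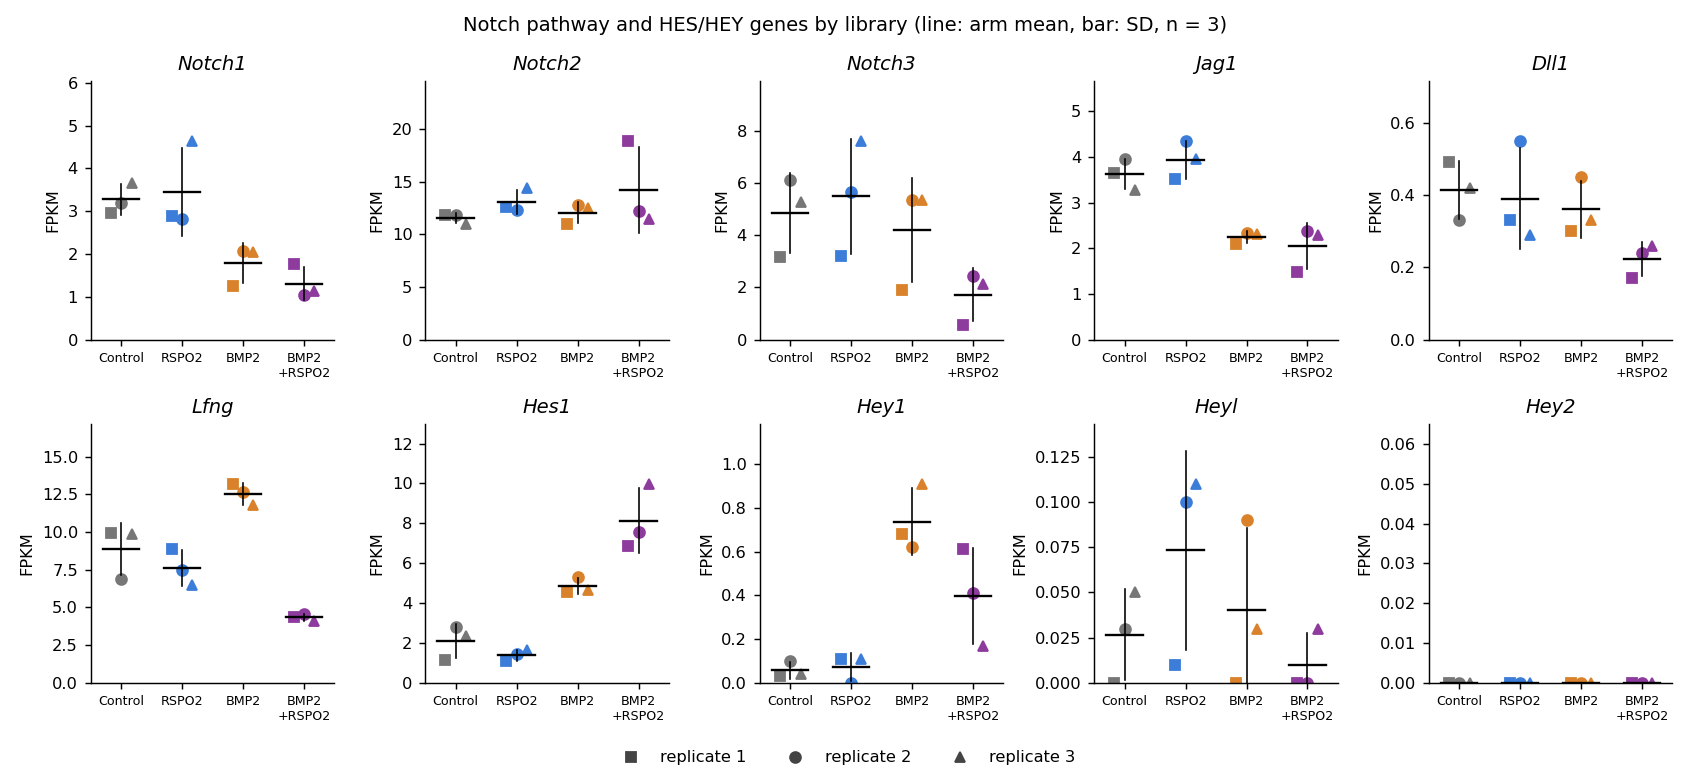
FPKM of the 10 genes in each library (vertical axes, linear and separate for each gene) by arm (horizontal axes), with symbols for the replicate number, a line at the arm mean and a bar for the SD over 3 libraries. Hes1 was highest in the BMP2+RSPO2 libraries (6.85 to 9.98 FPKM) and Lfng lowest there (4.09 to 4.57), whereas Hey2 was listed at 0 throughout.

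RSPO2 alone called none of the 6 tested genes, and none had an unadjusted limma p under 0.05. In that comparison 0.0779% of all tested genes were called, and 1 of the 6, Notch2, did not overlap with Control (9.33% of all genes did not). BMP2 alone also called none of the 6 by limma, with 1.52% of all genes called, but 4 of them (Hes1, Lfng, Notch1 and Jag1) had an unadjusted p under 0.05 (9.93% of all genes did) and no overlap with Control (20.8% of all genes). The combination against Control called 4 of 6: Hes1 rose, and Lfng, Notch1 and Jag1 fell, while 3.65% of all tested genes were called higher, 19.4% lower and 23% in either direction. The combination against RSPO2 called 5 of 6, Hes1 upward and Lfng, Notch1, Jag1 and Notch3 downward, where 4.32% of all genes were called higher, 21.8% lower and 26.1% in all. The combination against BMP2 called Lfng alone, downward, where 3.74% of genes were called lower, 0.641% higher and 4.38% in all. Groups did not overlap for 5 of the 6 genes in the combination against Control (44% of all genes), for 5 against RSPO2 (42.3%) and for 2, Hes1 and Lfng, against BMP2 (33.6%). These comparisons share arms and are therefore not independent of each other.

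Of all 11548 tested genes, 8484 had a log2 change below 0 in the combination against Control, so the falls stand beside a shifted background. The median log2 change of the 6 genes against Control was -0.74, and that of all tested genes was -0.26. Quantile normalization moved the median of all genes in that comparison up by 0.24 on the log2 scale, and median-of-ratios scaling by 0.23. Under either scaling the rise of Hes1 and the fall of Lfng against Control were called. Notch1 was not, with log2 changes of -0.71 and -0.72 (adjusted p = 0.0576 and 0.0559, and -0.90 without rescaling), and neither was Jag1, with -0.38 and -0.41 (adjusted p = 0.0948 and 0.0767, and -0.61 without rescaling). The all-gene split of 421 higher and 2235 lower calls became 800 and 826 with quantile normalization and 848 and 849 with median-of-ratios scaling. Against RSPO2 the same scalings kept the calls of Hes1, Lfng, Notch1 and Jag1 and not that of Notch3 (adjusted p = 0.138 and 0.122), and the all-gene split of 499 and 2516 became 876 and 949, or 895 and 936. Against BMP2 the fall of Lfng was called under both, and the split of 74 and 432 became 135 and 126, or 148 and 131.

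**Figure D2:**
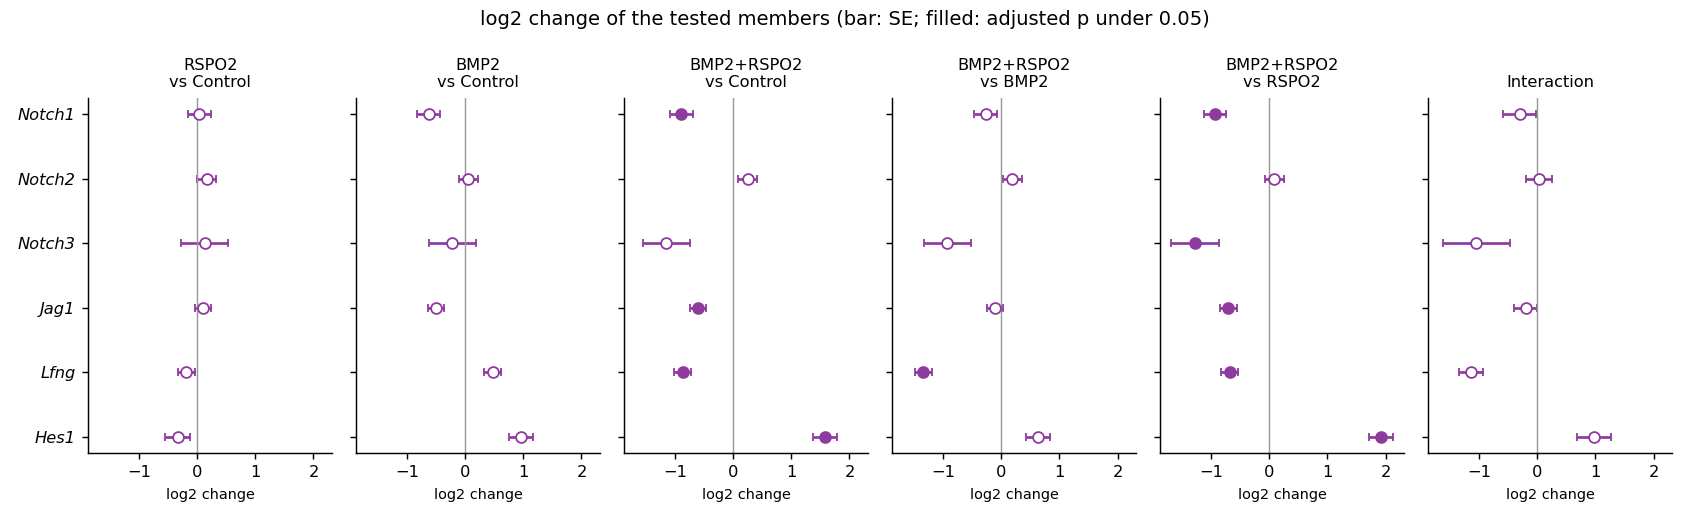
Log2 changes of FPKM + 1 (horizontal axes) of the 6 tested genes in the 5 comparisons of arms and the interaction, with bars for the SE of the limma fit and filled points for adjusted p under 0.05. Filled points are limited to comparisons with BMP2+RSPO2, and the Lfng point lies right of 0 under BMP2 alone (0.47) and left of 0 in the combination against Control (-0.88).

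Of the receptors, Notch1 and Notch3 fell in at least 1 comparison and Notch2 in none. Notch1, the founding receptor of the family, had 2.97, 3.19 and 3.67 FPKM in the Control libraries, 2.9, 2.81 and 4.65 under RSPO2, 1.25, 2.08 and 2.04 under BMP2, and 1.76, 1.04 and 1.13 under both. Every library that received BMP2 was below every library that did not. Notch1 fell in the combination against Control (log2 change -0.90, SE 0.20, limma adjusted p = 0.00989) and against RSPO2 (-0.94, adjusted p = 0.007). BMP2 alone gave a log2 difference of -0.63 (SE 0.20, adjusted p = 0.211), and the combination against BMP2 one of -0.27 (adjusted p = 0.391). Both calls held in all 12 fits that left out 1 library.

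Notch2, a receptor that is broadly expressed in the skeleton, was the most abundant of the 3 and did not pass the test in any comparison. It measured 11.9, 11.85 and 11.01 FPKM in Control, 12.62, 12.29 and 14.43 under RSPO2, 10.97, 12.76 and 12.52 under BMP2, and 18.93, 12.28 and 11.52 under both. The combination against Control differed by 0.25 (SE 0.16, adjusted p = 0.287), and without its first replicate by 0.04. The value of 18.93 FPKM belongs to the library rich in RNA polymerase III transcripts, and the other 2 libraries of that arm lay within the range of the BMP2 arm.

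Notch3, best known from vascular smooth muscle and pericytes, had the largest SE of the 6 genes. Control had 3.16, 6.12 and 5.29 FPKM, RSPO2 3.22, 5.65 and 7.63, BMP2 1.9, 5.35 and 5.35, and the combination 0.56, 2.44 and 2.15. All 3 combination libraries were below all Control and all RSPO2 libraries, but overlapped with BMP2 through the first replicate there. Notch3 fell in the combination against RSPO2 (log2 change -1.28, SE 0.41, limma adjusted p = 0.0419) and differed from Control by -1.15 (adjusted p = 0.0648). With replicates 2 and 3 alone the difference from Control was -1.02 and called (adjusted p = 0.00259), in a fit that called 34.6% of all genes. The call against RSPO2 was lost (adjusted p from 0.0519 to 0.12) without replicate 2 or 3 of Control, RSPO2 or BMP2, or replicate 1 or 3 of the combination, each left out alone. In the same arm the mural markers Acta2, Tagln and Pdgfrb were lower and Cspg4 was higher, as given above, and their part in the Notch3 and Jag1 values was not tested; whether fewer cells of a kind or less RNA per cell lies behind a lower value in bulk RNA cannot be told apart.

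Notch2 made up most of the receptor transcript in every arm. Notch1, Notch2 and Notch3 summed to 19.7 ± 1.58 FPKM in Control, 22.1 ± 4.14 under RSPO2, 18.1 ± 3.43 under BMP2 and 17.3 ± 3.48 under both. The share of Notch2 in that sum was 59 ± 6.04% in Control, 60.2 ± 6.71% under RSPO2, 67.9 ± 8.46% under BMP2 and 81.6 ± 6.47% under both. Notch1 held 16.6 ± 1.66%, 15.5 ± 1.94%, 9.8 ± 0.821% and 7.51 ± 0.849% in the same order of arms, and Notch3 held 24.3 ± 6%, 24.3 ± 6.23%, 22.3 ± 7.64% and 10.9 ± 7.16%. The combination means lean on its first replicate, the library rich in RNA polymerase III transcripts. Notch2 held 89.1% there and 77.9% and 77.8% in the other libraries of that arm, and Notch3 held 2.64%, 15.5% and 14.5%. Replicate 1 of BMP2 had a Notch2 share of 77.7%. These shares do not change with a factor that scales a whole library, and they are given as descriptions.

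**Figure D3:**
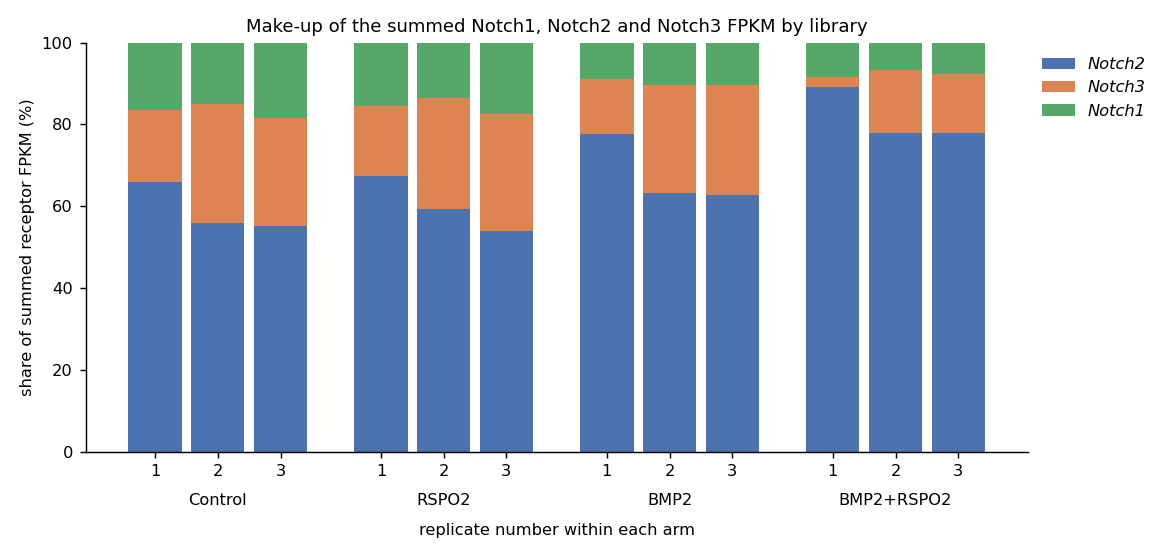
Share (vertical axis, %) of Notch2, Notch3 and Notch1 in their summed FPKM for each of the 12 libraries, grouped by arm along the horizontal axis. The mean Notch2 share was 59% in Control and 81.6% with both proteins (89.1%, 77.9% and 77.8% by replicate). The first replicate had the largest Notch2 share in every arm.

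Both ligands had their lowest mean in the combination, and Jag1 was called. Jag1, the ligand that is mutated in Alagille syndrome, measured 3.66, 3.95 and 3.28 FPKM in Control, 3.52, 4.36 and 3.95 under RSPO2, 2.1, 2.34 and 2.32 under BMP2, and 1.48, 2.39 and 2.29 under both. All 6 libraries with BMP2 were below all 6 without it, and the BMP2 and combination arms overlapped. Jag1 fell in the combination against Control (log2 change -0.61, SE 0.14, limma adjusted p = 0.0118) and against RSPO2 (-0.71, adjusted p = 0.00522). BMP2 alone gave -0.51 (SE 0.14, adjusted p = 0.147), and this became a call, at the same size, when replicate 1 of the combination was left out of the common fit (adjusted p = 0.0234). Both calls held in each of the 12 fits without 1 library.

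Dll1, a Delta-like ligand, was low everywhere: 0.49, 0.33 and 0.42 FPKM in Control, 0.33, 0.55 and 0.29 under RSPO2, 0.3, 0.45 and 0.33 under BMP2, and 0.17, 0.24 and 0.26 under both. The 3 combination libraries lay below all others, and with 3 against 3 libraries an exact two-sided permutation test against Control gave p = 0.1, the smallest it allows. A limma fit of all 21829 genes with any value above 0 gave a log2 difference of -0.21 against Control (adjusted p = 0.152). Values this low are compressed by the added 1 on the log scale.

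Lfng, which encodes lunatic fringe, was the gene for which adding RSPO2 to BMP2 made the largest difference among the 6. Its libraries measured 9.93, 6.88 and 9.86 FPKM in Control, 8.85, 7.49 and 6.51 under RSPO2, 13.2, 12.65 and 11.77 under BMP2, and 4.34, 4.57 and 4.09 under both. The BMP2 arm was above and the combination arm below all libraries of the other arms. Lfng fell in the combination against BMP2 (log2 change -1.34, SE 0.15, limma adjusted p = 0.00185), against Control (-0.88, adjusted p = 0.00287) and against RSPO2 (-0.68, adjusted p = 0.00766). These 3 calls held in all 12 fits that left out a library and in all 10 other settings tried. BMP2 alone gave 0.47 (SE 0.15, adjusted p = 0.209) and RSPO2 alone -0.19 (adjusted p = 1). The interaction, meaning how much the RSPO2 effect on the log2 scale differs when BMP2 is there, was -1.15 for Lfng (SE 0.21, unadjusted p = 1.98e-04, adjusted p = 0.0587). It was called for 0 of the 6 genes by limma, 2 of them (Lfng and Hes1) had an unadjusted p under 0.05 (13% of all genes did), and 0.294% of all genes were called. Without replicate 1 of the combination the Lfng interaction was of equal size (-1.15) and called (adjusted p = 0.0407).

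Promoter windows are shown for Lfng, the gene that differed most between BMP2 with and without RSPO2, and for Notch1 and Jag1, which were lower in all BMP2 libraries. They come from RefSeq on build GRCm38.p6, run from 250 bases before to 50 bases after the transcription start, and read 5′ to 3′ on the strand of the gene: plus for Lfng (chr5:140607091-140607390) and minus for Notch1 (chr2:26503773-26504072) and Jag1 (chr2:137116471-137116770). Capitals mark letters that match 1 of 5 motifs on either strand: TGGGAA (RBPJ core), CACNAG (N-box, bound by HES proteins), CACGTG (E-box, bound by HEY and other helix-loop-helix proteins), GGCGCC (an element bound by BMP SMADs) and ATCAAAG (TCF/LEF, the Wnt effectors).
Lfng: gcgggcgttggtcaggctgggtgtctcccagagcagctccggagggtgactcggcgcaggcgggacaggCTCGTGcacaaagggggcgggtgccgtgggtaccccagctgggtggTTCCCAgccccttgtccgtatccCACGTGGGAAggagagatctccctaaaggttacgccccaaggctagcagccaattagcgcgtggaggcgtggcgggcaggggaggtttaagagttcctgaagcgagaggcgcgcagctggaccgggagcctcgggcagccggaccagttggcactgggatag
Notch1: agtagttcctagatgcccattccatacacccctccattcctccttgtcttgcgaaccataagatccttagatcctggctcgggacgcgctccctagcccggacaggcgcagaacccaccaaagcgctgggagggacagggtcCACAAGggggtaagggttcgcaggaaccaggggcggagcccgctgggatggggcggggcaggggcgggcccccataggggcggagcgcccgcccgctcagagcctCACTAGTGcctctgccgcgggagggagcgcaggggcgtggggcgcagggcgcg
Jag1: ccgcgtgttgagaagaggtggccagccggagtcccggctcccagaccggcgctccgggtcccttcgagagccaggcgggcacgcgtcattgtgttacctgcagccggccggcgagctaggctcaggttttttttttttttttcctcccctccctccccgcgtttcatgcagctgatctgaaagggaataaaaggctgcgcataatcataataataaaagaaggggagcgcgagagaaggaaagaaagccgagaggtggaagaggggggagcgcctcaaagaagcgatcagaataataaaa

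The Lfng window held the RBPJ core at 2 places, with first bases at -135 and -108 from the start, the first of them on the reverse strand, an N-box at -181 and an E-box at -112 that overlaps the RBPJ core as CACGTGGGAA. The Notch1 window held N-boxes at -108, -3 and -1, the last 2 being overlapping matches on opposite strands within CACTAGTG. The Jag1 window held none of the 5 motifs. Of 32851 promoter windows of the same length in the table, 25.56% held the RBPJ core, 42.48% the N-box, 7.15% the E-box, 11.87% the SMAD element and 3.73% the TCF/LEF letters, so most of these matches are common. In all, 7 of the 10 genes had a window in the table. No window was found for Hes1, Hey1 and Heyl, so their promoters were not searched for motifs. A match is a run of letters and is no measure of binding.

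Hes1, the HES repressor that answers to Notch and to BMP in many cells, was the only one of the 6 tested genes called higher. Control measured 1.16, 2.79 and 2.33 FPKM, RSPO2 1.1, 1.42 and 1.64, BMP2 4.55, 5.3 and 4.66, and the combination 6.85, 7.56 and 9.98. The arms with BMP2 did not overlap with those without it, nor with each other. Hes1 rose in the combination against Control (log2 change 1.59, SE 0.21, limma adjusted p = 8.3e-04) and against RSPO2 (1.93, adjusted p = 1.75e-04), and both calls held in all 12 fits without a library and in all 10 other settings. BMP2 alone gave 0.95 (SE 0.21, adjusted p = 0.0555), which was a call without replicate 1 of the combination (adjusted p = 0.0363). The combination against BMP2 gave 0.63 (SE 0.21, adjusted p = 0.101) and RSPO2 alone -0.34 (adjusted p = 1). The summed osteoblast, endothelial and chondrocyte markers were also higher in the BMP2 arms than in Control, with the endothelial and chondrocyte sums as given above and an osteoblast sum of 7354 to 12340 FPKM in Control, 6773 to 10540 under RSPO2, 14000 to 23160 under BMP2 and 16570 to 31490 under both. Col1a1 and Col1a2 led the osteoblast sum, with means of 11890 and 5563 FPKM under both. The median of the osteoblast markers ran from 80.6 to 152 FPKM in Control and overlapped with 138 to 1057 under both, but not with 286 to 448 under BMP2. Endothelial values under both were low and uneven, with Cdh5 at 1.52 ± 2.08 FPKM. The part of these markers in the Hes1 and Hey1 values was not tested.

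Hey1, a HEY repressor, was low and had its higher values in the BMP2 libraries. Its libraries had 0.03, 0.1 and 0.04 FPKM in Control, 0.11, 0 and 0.11 under RSPO2, 0.68, 0.62 and 0.91 under BMP2, and 0.61, 0.41 and 0.17 under both. All 6 libraries with BMP2 were above all 6 without. The BMP2 arm was above the combination, with nearest values of 0.62 and 0.61 FPKM. The mean with BMP2 was 13-fold that of Control and the mean with both 7-fold. These ratios rest on Control values of a few hundredths of an FPKM: without Control replicate 2 they were 21.1 and 11.3, and over the ratios that left out 1 library they ran from 10.5 to 21.1 and from 5.12 to 11.3. The exact two-sided permutation test gave p = 0.1 for BMP2 against Control and for the combination against Control, BMP2 and RSPO2. This is the smallest value that 3 against 3 libraries allow. RSPO2 against Control gave p = 0.8 in the exact two-sided permutation test. In the limma fit without a filter, BMP2 alone called Hey1 higher (log2 change 0.71, SE 0.11, adjusted p = 0.0233; 0.651% of the 21829 genes were called), and the combination missed the threshold (0.39, adjusted p = 0.0544).

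Heyl, another HEY gene, lay between 0 and 0.11 FPKM in all libraries, with overlapping arms. Hey2, known from the heart and vessels, was listed at 0 in all 12. The means of Hes1 and Hey1 peaked in different arms: Hes1 had its highest mean with both proteins and Hey1 under BMP2 alone.

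Replicate numbers carried a pattern of their own in some of these genes. Replicate 1 was the lowest of its arm in all 4 arms for Notch3 and for Hes1, and in 3 of 4 arms for Jag1 and Heyl, and the highest in 3 arms for Lfng. The Heyl values lay near 0. How many of all genes have such an order was not counted, so it is not shown to be particular to these genes. Over all 11548 tested genes, the deviations of replicate 1 libraries from their arm means correlated between arms (Pearson's r from 0.16 to 0.63). The median of 23 cell cycle genes in replicate 1 was 47.9 FPKM in Control, 47.2 under RSPO2, 41.4 under BMP2 and 23.6 under both, against 7.77 to 19.3 FPKM in the other 8 libraries. The part of cell cycle differences in the values of Notch3 and Hes1 was not tested.

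With replicates 2 and 3 of each arm alone, more of the 6 genes were called in 4 of the 6 comparisons. BMP2 alone then called Hes1 higher (log2 change 0.75, limma adjusted p = 0.0277) and Jag1 lower (-0.47, adjusted p = 0.0407), where 8.34% of all genes were called. The combination against BMP2 called Hes1 higher (0.70, adjusted p = 0.0188) and Lfng (-1.31, adjusted p = 0.00329) and Notch3 (-0.95, adjusted p = 0.0062) lower, where 21.8% of all genes were called. The interaction called Hes1 (1.19, adjusted p = 0.0196), Lfng (-1.10, adjusted p = 0.0319) and Notch3 (-1.13, adjusted p = 0.0202), where 9.6% of all genes were called. The SE of Notch3 was 0.14 in this fit and 0.41 with all libraries, that of Hes1 0.14 and 0.21, and that of Lfng 0.16 and 0.15.

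**Figure D4:**
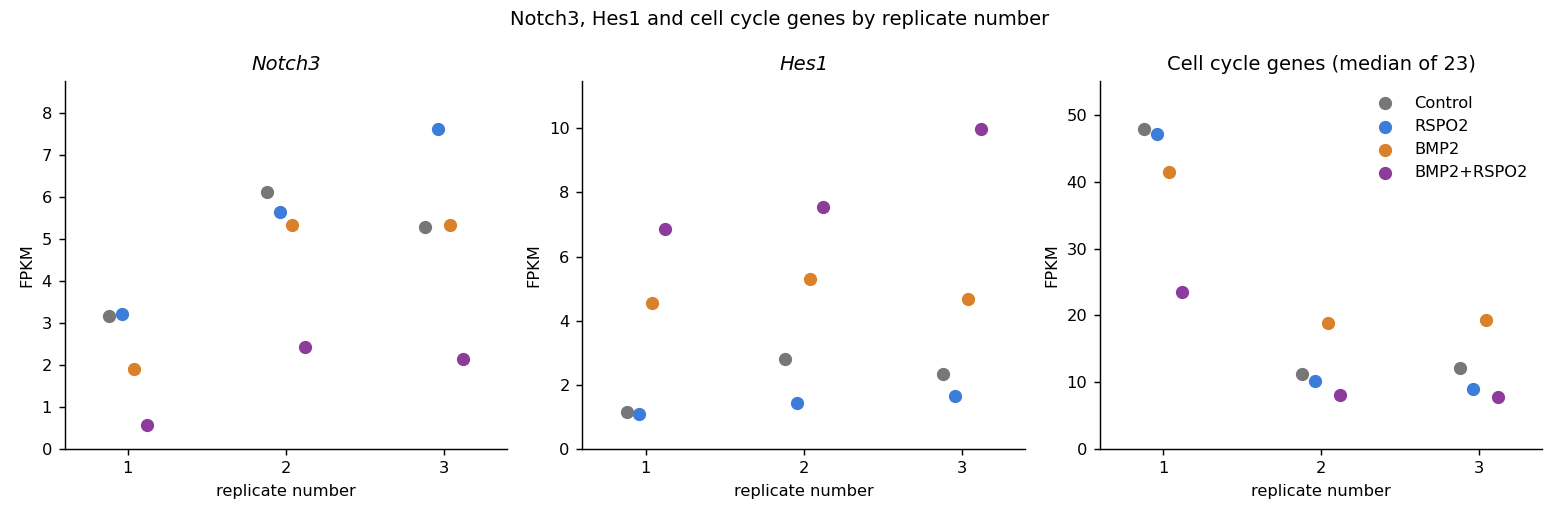
FPKM of Notch3, of Hes1 and of the median of 23 cell cycle genes (vertical axes) against replicate number (horizontal axes), 1 point per library coloured by arm. In each arm the first replicate has the lowest Notch3 and Hes1 value and the highest cell cycle median (23.6 to 47.9 FPKM).

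The wider pathway was covered by 56 further genes, of which 54 were in the table and 38 were tested. RSPO2 alone and BMP2 alone called 0 of the 38 by limma, each with 4 (10.5%) at an unadjusted p under 0.05, where 3.62% and 9.93% of all tested genes were. The combination called 4 higher and 2 lower against Control, which is 15.8% of the 38 beside 23% of all genes. It called 2 higher and 0 lower against BMP2 (5.26% beside 4.38%), and 3 higher and 3 lower against RSPO2 (15.8% beside 26.1%). The interaction called 0, with 4 (10.5%, beside 13% of all genes) at an unadjusted p under 0.05. The median log2 change of the 38 in the combination against Control was 0.03, beside -0.26 for all tested genes. Quantile normalization changed the counts of calls among the 38 to 8 higher and 1 lower against Control and to 7 and 1 against RSPO2. Median-of-ratios scaling changed both to 8 and 1. Over all 11548 tested genes, quantile normalization called 800 higher and 826 lower against Control, and 876 and 949 against RSPO2. Median-of-ratios scaling called 848 and 849 of all genes against Control, and 895 and 936 against RSPO2.

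The 4 that rose against Control were Neurl1a, Spen, Tle3 and Bhlhe40. Neurl1a encodes a ubiquitin ligase of the Neuralized family that acts on Notch ligands. It measured 1.67, 2.59 and 2.26 FPKM in Control, 1.2, 1.36 and 1.72 under RSPO2, 5.8, 3.67 and 3.34 under BMP2, and 5.12, 9.93 and 8.44 under both (log2 change against Control 1.45, SE 0.24, limma adjusted p = 0.0026). Its arms ranked in the order of Hes1. Spen, a co-repressor partner of RBPJ, measured 3.86 ± 0.24 FPKM in Control and 6.35 ± 0.381 under both (log2 change 0.60, adjusted p = 0.00975), and Tle3, a Groucho-type co-repressor recruited by HES proteins, 2.91 ± 0.148 and 4.77 ± 0.21 (0.56, adjusted p = 0.00459). Tle3 was also higher against BMP2 (0.44, adjusted p = 0.0428), a call that held in 1 of 12 fits without a library, the one without replicate 1 of the combination (adjusted p from 0.0472 to 0.122 over the 12). Bhlhe40, Bhlhe41 and Hes6 stand in a list of targets drawn up here, and whether Notch drives them in these cells was not tested. Bhlhe40, a helix-loop-helix repressor, was the most abundant gene of that list. Bhlhe40 measured 27.4 ± 1.37 FPKM in Control, 34.8 ± 4.6 under RSPO2, 25.5 ± 1.01 under BMP2 and 39.8 ± 6.33 under both. It rose against Control (log2 change 0.51, adjusted p = 0.0205, held in 8 of 12 such fits, up to 0.0702 without Control replicate 1) and against BMP2 (0.61, adjusted p = 0.0353, held in 4 of 12, up to 0.12 without BMP2 replicate 3).

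Bhlhe41, the paralogue of Bhlhe40, went the other way: 3.5, 2.95 and 2.34 FPKM in Control, 3.68, 3.02 and 3.01 under RSPO2, 2.11, 1.54 and 1.5 under BMP2, and 0.94, 0.75 and 0.91 under both. It fell against Control (log2 change -1.06, SE 0.15, limma adjusted p = 0.00114) and against RSPO2 (-1.18, adjusted p = 4.5e-04), and all 3 combination libraries were below all others. Poglut1, which adds O-glucose to Notch receptors, fell against Control (log2 change -0.58, adjusted p = 0.011) and against RSPO2 (-0.45, adjusted p = 0.0272), and neither call held under quantile normalization (0.0769 and 0.265). The call against RSPO2 was also lost without RSPO2 replicate 1 (adjusted p = 0.0606) or 2 (0.102). Hes6, a HES family member that antagonizes HES1, was highest with RSPO2 (16.2 ± 2.91 FPKM, Control 10.8 ± 0.582, BMP2 10.3 ± 1.21). It measured 5.11, 9.51 and 10.13 FPKM in the combination (8.25 ± 2.74). Hes6 fell there against RSPO2 (log2 change -0.93, limma adjusted p = 0.011, and 0.0563 under quantile normalization). Without replicate 1 of the combination that change was -0.65, and all 12 fits without a library called it.

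The remaining genes are described by group. None of the 9 tested cleavage genes (ADAM proteases, furin and the gamma-secretase subunits) was called in any comparison by limma. Over the comparisons 0.0779% to 26.1% of all genes were called. In the combination against Control, 2 of 9 had an unadjusted p under 0.05, where 38.5% of all genes did. In the other comparisons at most 1 of 9 had such a p. Psenen, a gamma-secretase subunit, had the highest mean over the 12 libraries (28.4 FPKM), but the protease gene Adam10 was above it under BMP2 (34.07 and 29.15 FPKM) and in the combination (31.67 and 24.45). Of the 11 tested nuclear cofactors 2 were called, the Spen and Tle3 just described. Both were called in the combination against Control (beside 23% of all genes) and against RSPO2 (26.1%), and only Tle3 against BMP2 (4.38%). The most abundant nuclear cofactor was the co-repressor gene Ctbp1 at 36.5 FPKM. Dtx3, a Deltex family gene, had the highest mean of the trafficking group at 15.3 FPKM over the 12 libraries and was not called. Rfng, another fringe gene, had the highest of the glycosylation group at 14.7 FPKM and was not called, but Poglut1 was above it in Control (16.55 and 14.17 FPKM). Of the further ligands 1 of 5 was tested, Dlk2 at 2.89 FPKM, and the remaining receptor, Notch4, had a mean of 0.085 FPKM. Rbpj and Maml2 were not analysed here.

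**Figure D5:**
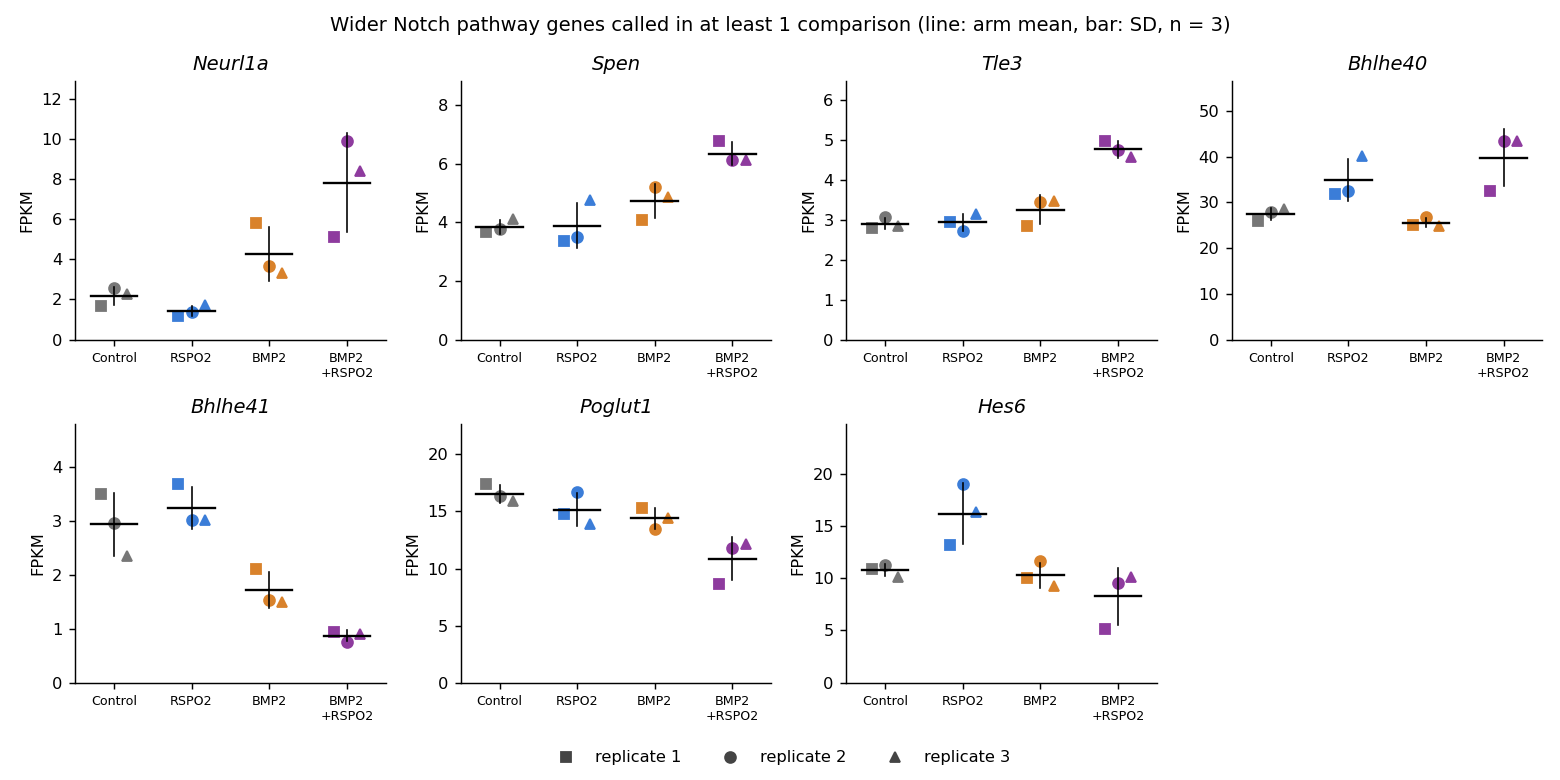
FPKM per library of the 7 genes of the wider Notch lists that were called in at least 1 comparison, by arm. Vertical axes are linear and separate for each gene, with a line at the arm mean and a bar for the SD over 3 libraries. Neurl1a, Spen, Tle3 and Bhlhe40 have their highest mean with both proteins (7.83, 6.35, 4.77 and 39.8 FPKM), and Bhlhe41, Poglut1 and Hes6 their lowest there (0.867, 10.9 and 8.25 FPKM).

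For each of the 5 genes called in at least 1 comparison, the tested genes with the most similar values over the 12 libraries were listed. Likeness was Pearson's r of log2(FPKM + 1), a description over libraries that share arms and replicate numbers. Hes1 was closest to Grrp1 (r = 0.988), Col24a1 (0.984), a fibrillar collagen gene, and Myo18a (0.983), an unconventional myosin gene. Jag1 was closest to Ccdc102a (r = 0.981), Lgals8 (0.974), a galectin gene, and Tgfb3 (0.973), a TGF-beta ligand gene. Notch3 was closest to Ap3b1 (r = 0.979), an adaptor subunit of vesicle traffic, Ift122 (0.963), a ciliary transport gene, and Il3ra (0.963). Notch1 was closest to the homeobox gene Meis2 (r = 0.962), Trerf1 (0.962) and Hace1 (0.961). Lfng had the lowest top values, with Cp (r = 0.949), the ceruloplasmin gene, Saal1 (0.941) and the myosin light chain gene Myl12b (0.941). Among the 6 genes themselves, Hes1 ran opposite to Jag1 (r = -0.84) and Notch1 (r = -0.83), and Notch1 ran with Jag1 (r = 0.76).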

How the data were processed

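RNA was measured in 12 poly(A)-selected stranded libraries of a mouse cell line, 3 in each of 4 arms. Per the submitters' processing notes, cutadapt 1.10, FastQC 0.10.1, HISAT2 2.0, StringTie 1.3.4 and edgeR (no version or role given) were used, and the builds GRCm38 and mm10 are named. The gene identifiers of the deposited table are those of the C57BL/6NJ strain annotation, so gene coordinates were not taken from it. The authors deposited FPKM per gene and library, rounded to 2 decimals. They also deposited a p-value and a q-value per gene without naming the groups compared, and these were not used.

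Depth is unknown. Over 66 library pairs, the fullest 0.02-wide bin of log ratios held 2.08% to 4.43% of genes at low FPKM. No whole-read steps were seen by this measure, and no count test was run. Pairs with BMP2+RSPO2 replicate 1 held 562 to 723 such low genes, and the other pairs 1327 to 1850. FPKM were transformed as log2(FPKM + 1). The 11548 genes that reached 1 FPKM in 3 libraries or more were fitted with limma 3.58.1 in R 4.3.3, with 1 model over the 4 arms, a variance prior with trend, 8 residual and 2.5 prior degrees of freedom, two-sided tests and Benjamini-Hochberg adjustment within each of 6 comparisons. The 17203 genes at 0 in all libraries were left out of the fit without a filter. The scripts were tested on simulated data.

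Named were all 10 genes, of the wider lists each called gene and the highest of each list, and for each called gene its 3 closest genes. The genes, lists and tests were chosen with earlier results of these data known. Alternatives were pseudocounts of 0.1 and 0.5, other filters, quantile and median-of-ratios scaling, a prior without trend, the 2 arms alone, a replicate block, replicates 2 and 3 only, and leaving out each library. The limma p-values weigh differences between arms against a spread per gene. That spread is pooled over the libraries within the fitted arms and moderated by the prior.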

Additional observations from a re-analysis of the deposited data

How the results depend on the processing

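Depth is unknown and each arm has 3 libraries, which limits the precision of every value, and low genes such as Dll1 and Hey1 are compressed by the added 1. The count of called genes among the 10 was 0 for BMP2 against Control and became 1 without a filter (Hey1), 1 with the replicate block, 2 with replicates 2 and 3 only, and 0 to 2 when 1 library was left out (2 without BMP2+RSPO2 replicate 1). It was 4 for the combination against Control and 2 under quantile normalization and under median-of-ratios scaling. In that comparison it was 3 with only the 2 arms compared (Jag1 lost), and 5 with the replicate block and with replicates 2 and 3 only. It was 1 against BMP2 and became 3 with the replicate block and 3 with replicates 2 and 3 only. Against RSPO2 it was 5, and 3 with only the 2 arms compared (Notch3 and Jag1 lost). It was 4 there without a filter, with 1 FPKM required in all 12 libraries, and under quantile normalization and median-of-ratios scaling. The interaction went from 0 to 1 with the replicate block, 3 with replicates 2 and 3 only, and 0 to 1 over the fits without 1 library (1 without BMP2+RSPO2 replicate 1). The cause of these differences was not tested.

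Directions turned only for values that were not called. With replicates 2 and 3 only, Notch2 was -0.081 against BMP2, -0.15 against RSPO2 and -0.29 for the interaction. Jag1 against BMP2 was 0.062 under quantile normalization, 0.038 under median-of-ratios scaling and 0.0042 with replicates 2 and 3 only. Over the fits without 1 library, Notch1 for RSPO2 alone ran from -0.15 to 0.14, Notch3 from -0.11 to 0.41 for RSPO2 alone and from -0.45 to 0.15 for BMP2 alone, Notch2 from -0.018 to 0.32 against BMP2, from -0.13 to 0.21 against RSPO2 and from -0.18 to 0.15 for the interaction, and Jag1 from -0.19 to 0.039 against BMP2.

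Among all genes, the calls for RSPO2 alone ranged from 0 to 21 without 1 library (9 with all), for BMP2 alone from 65 to 403 (175), for the combination from 1595 to 2758 against Control (2656), from 60 to 709 against BMP2 (506) and from 1847 to 3058 against RSPO2 (3015), and for the interaction from 0 to 187 (34). The replicate block gave 26, 329, 3897, 1710, 4159 and 91 calls in the order RSPO2, BMP2, the combination against Control, BMP2 and RSPO2, and interaction. Replicates 2 and 3 only gave 195, 963, 3994, 2512, 4314 and 1109, quantile normalization 5, 170, 1626, 261, 1825 and 12, and median-of-ratios scaling 6, 168, 1697, 279, 1831 and 3. With only the 2 arms compared the counts were 0, 159, 1172, 35 and 1237 (no interaction). Without a filter they were 6, 142, 2188, 306, 2555 and 23, with 1 FPKM required in all 12 libraries 5, 109, 2450, 563, 2729 and 34, and a pseudocount of 0.1 called 0 for RSPO2 alone and a pseudocount of 0.5 called 4.

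The replicate numbers were not taken as pairs, because not all same-number libraries had correlated deviations. Of 18 such pairs 16 were above 0.1, and 5 of 12 libraries correlated best with their own number in every other arm. By number, the pairs ran from 0.16 to 0.63 for replicate 1, from 0.25 to 0.41 for replicate 2 and from -0.12 to 0.31 for replicate 3. The main fit has no block, so a difference shared by the first replicates counts in its SE. For Notch3 against Control that SE was 0.41, and 0.14 with the block. With the number as a block, limma called Hes1 for BMP2 alone (adjusted p = 0.0153) and against BMP2 (0.0346), Notch3 against BMP2 (0.0098) and Control (9.87e-04), and Lfng in the interaction (0.0427).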
